A study of Mus musculus with 12 samples.

Results

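In all, 10 genes of the Notch pathway were followed in mouse colonic organoids: the receptors Notch1, Notch2 and Notch3, the ligands Dll1, Dll4, Jag1 and Jag2, the target genes Hes1 and Nrarp, and Atoh1. They were chosen by name, as the rows of the deposited table whose Ensembl identifier carries one of these symbols, and make up 10 of its 48795 genes. Colonic organoids are epithelial structures grown from isolated colon crypts in a gel. They came from C57BL/6 mice, either wild type (WT) or AhR deficient (KO, titled AhR-/-), that is, without a working aryl hydrocarbon receptor, a ligand-activated transcription factor. Each genotype was sampled in WENR medium, which supplies R-spondin-1, Noggin, EGF and Wnt-3A (the stem condition), and after 3 days in ENR medium, which lacks Wnt-3A (the differentiated condition). Total RNA was sequenced in 3 libraries for each of the 4 groups. The labels name neither the allele nor the animal behind each library, so that p-values measure the spread between these libraries, which may be technical.

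Notch signalling runs between touching cells. A Delta or Jagged ligand on one cell binds a Notch receptor on its neighbour, the receptor is cleaved, and its freed intracellular part enters the nucleus, where it joins the DNA-binding protein Rbpj and switches on genes such as Hes1 and Nrarp. In the intestinal crypt Notch activity keeps progenitors cycling and steers them to the absorptive fate. Hes1 represses Atoh1, the factor that commits a cell to the secretory lineage of goblet and enteroendocrine cells, and Atoh1-positive cells in turn carry Delta ligands.

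Libraries held 25.1 to 99.0 M reads assigned to genes, and levels below are normalized counts, which are read counts divided by a factor for each library. Transcripts of Ahr were not lower in the KO libraries, at 2503 to 2831 against 1746 to 1909 in the stem condition and 3110 to 3824 against 2127 to 2260 in the differentiated condition. Reads were summed over all of Ahr, which checks nothing about a deleted part. Cyp1b1, a direct AhR target, lay at 7479 to 8502 in WT stem and 269 to 571 in KO stem libraries, and at 574 to 680 and 13.0 to 20.6 in the differentiated libraries. All 8 epithelial markers were present in every group. Fibroblast transcripts summed to 21964 in WT stem library 1 and 624 in KO stem library 3, against 16.2 to 83.0 in the other 10 libraries. Of the endothelial markers Emcn had no read in any library, whereas Egfl7 had group means of 69.9 to 1126. Of the immune markers Cd3e had no read, whereas Cd68 had group means of 659 to 4452. WT stem library 1 was the highest of its group for 9 of the 10 genes, all but Dll4, where 47.0% of all genes tested were highest in it. KO differentiated library 1 was also the highest of its group for 9 of the 10, all but Atoh1, against 44.7% of all genes tested. Values without these libraries are given where they change a call of the 10 genes, and for some others.

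Promoter sequence is shown for Atoh1, Dll4 and Notch3, since Atoh1 and the ligand Dll4 had the largest rises with differentiation and the receptor Notch3 the largest called difference between the genotypes. Each line holds the 250 bases before the RefSeq start of the gene on GRCm38.p6, written along its own strand. Capitals mark matches to the AHR core motif GCGTG or to the TCF motif CTTTGA, on either strand. The window of Atoh1 is chr6:64728875-64729124 on the plus strand, that of Dll4 chr2:119325534-119325783 on the plus strand, and that of Notch3 chr17:32166891-32167140 on the minus strand.
Atoh1: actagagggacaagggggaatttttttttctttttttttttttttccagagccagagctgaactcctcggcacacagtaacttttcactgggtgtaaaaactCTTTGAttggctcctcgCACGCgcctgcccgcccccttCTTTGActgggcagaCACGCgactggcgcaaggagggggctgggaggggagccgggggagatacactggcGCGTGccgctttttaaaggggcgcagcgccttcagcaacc
Dll4: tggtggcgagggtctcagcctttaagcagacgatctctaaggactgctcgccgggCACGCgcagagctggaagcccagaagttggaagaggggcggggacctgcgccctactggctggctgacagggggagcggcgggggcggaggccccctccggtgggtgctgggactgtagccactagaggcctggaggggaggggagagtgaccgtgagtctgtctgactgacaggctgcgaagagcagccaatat
Notch3: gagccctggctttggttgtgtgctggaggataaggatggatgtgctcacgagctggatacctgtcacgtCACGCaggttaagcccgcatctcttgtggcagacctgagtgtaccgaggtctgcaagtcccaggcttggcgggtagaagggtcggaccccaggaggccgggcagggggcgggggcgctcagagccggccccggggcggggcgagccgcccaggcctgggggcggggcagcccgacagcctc
Atoh1 held 3 AHR core matches, at 131, 95 and 40 bases before its start, and 2 TCF matches, at 148 and 110 bases. Windows were matched for 9 of the 10 genes, all but Hes1, with 10 windows in all since Dll1 had a pair of starts. The AHR core was present in 8 of these 10 windows and in 28.2% of 32851 windows of all genes. The core contains a CpG, and the windows had a G and C content of 55.6% to 87.2%, against a median of 52.4% over all windows. The TCF motif was present in 1 of the 10 windows, that of Atoh1, and in 13.8% of all windows. The Rbpj motif TGGGAA was in 0 of the 10 and in 21.6% of all windows. These are matches of letters, and binding was not measured.

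**Figure D1:**
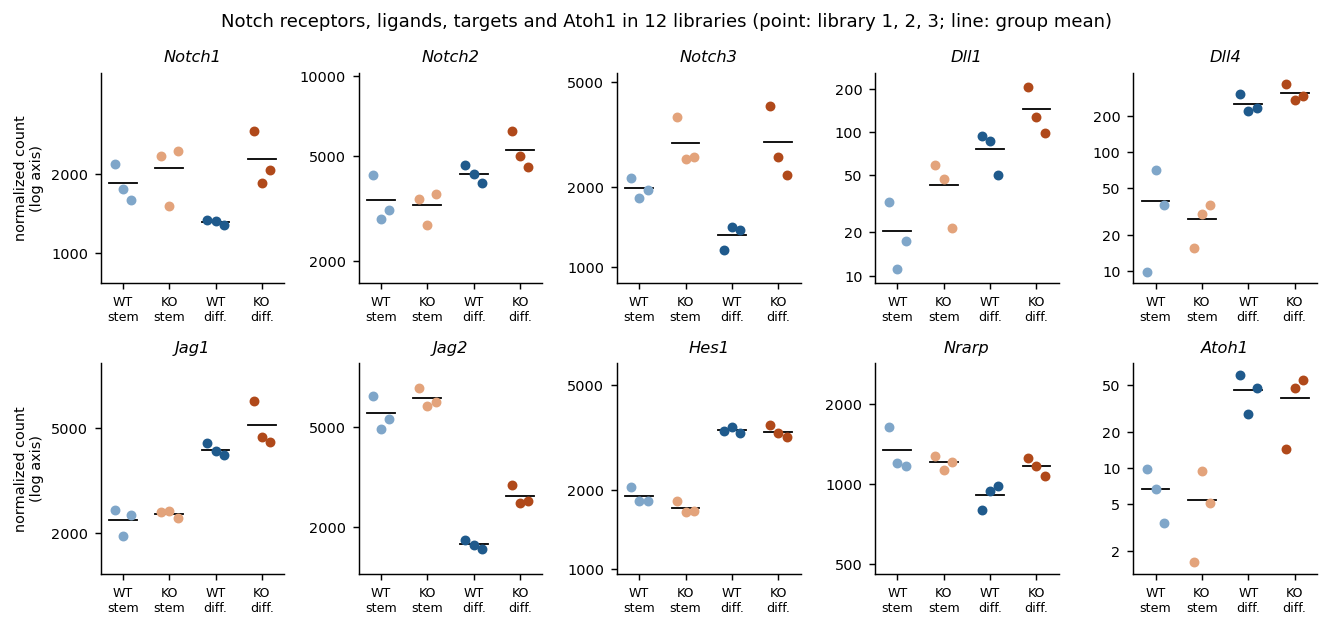
Normalized count (log axis) of the 10 genes in each library, with a point for each of libraries 1, 2 and 3 of WT stem, KO stem, WT differentiated and KO differentiated organoids and a line at the group mean. Jag2 fell and Jag1, Hes1, Dll1, Dll4 and Atoh1 rose with differentiation in both genotypes, while Notch1, Notch3 and Jag2 lay higher in KO than in WT differentiated libraries.

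The first question was how the pathway changed when Wnt-3A was withdrawn from WT organoids. Of the 10 genes, 5 rose and 4 fell, where 72.2% of the 14856 genes tested were called in this comparison (36.3% higher and 35.9% lower), so most of the table moved as well. The 5 that rose and the 4 that fell did so without overlap between the groups, beside 75% of all genes (37.8% higher and 37.3% lower), and 10 of 10 had an unadjusted p under 0.05, beside 74.1%. All changes and adjusted p-values below are from limma on log2(normalized count + 1), given ± SE, with 3 libraries a group. The ligands moved in opposite directions. Jag2 fell by 1.71 ± 0.11 on the log2 scale (adjusted p = 7.47e-08), while Jag1 rose by 0.89 ± 0.12 (adjusted p = 5.21e-05), Dll1 by 1.94 ± 0.46 (adjusted p = 0.00259) and Dll4 by 3.06 ± 0.55 (adjusted p = 3.43e-04). Hes1 rose by 0.82 ± 0.07 (adjusted p = 5.19e-07) and Nrarp fell by 0.55 ± 0.13 (adjusted p = 0.0024), and Atoh1 rose by 2.64 ± 0.61 (adjusted p = 0.00212). In KO organoids 6 of the 10 rose and 1 fell, beside 67.7% of all genes called (34.1% higher and 33.6% lower). The same 7 did not overlap between the groups, beside 74.3% of all genes (37.1% higher and 37.2% lower), and 7 had an unadjusted p under 0.05, beside 70.3%. In bulk RNA a change in the number of cells of a type and a change in the RNA of each cell cannot be told apart.

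Among the receptors, Notch2 (ENSMUSG00000027878, chromosome 3, 98013527 to 98150361) was the highest per length in WT stem libraries. It stood at 4206, 2878 and 3104 in WT stem libraries, 3426, 2731 and 3582 in KO stem, 4599, 4275 and 3952 in WT differentiated and 6204, 4969 and 4526 in KO differentiated libraries. Every KO differentiated library exceeded every KO stem library, whereas the WT groups overlapped through WT stem library 1. The rise was 0.69 ± 0.16 in KO (adjusted p = 0.00225) and 0.35 ± 0.16 in WT (adjusted p = 0.0642). Without WT stem library 1 the WT value was 0.51 and was called (adjusted p = 0.0068), as it was with the replicate number as a block (adjusted p = 0.0156). The WT rise was also called without KO differentiated library 1 (adjusted p = 0.0461). The difference between the genotypes in this response was 0.34 ± 0.22 (adjusted p = 0.356).

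Notch1 (ENSMUSG00000026923, chromosome 2, 26457903 to 26516663), the receptor best known for holding crypt progenitors undifferentiated, read 2175, 1744 and 1596 in WT stem and 2343, 1514 and 2436 in KO stem libraries. It read 1334, 1323 and 1277 in WT differentiated and 2915, 1843 and 2073 in KO differentiated libraries. The WT differentiated libraries lay close together and below all others. The fall in WT was 0.47 ± 0.20 and only just passed the threshold (fell by 0.47, adjusted p = 0.0492), and it missed it in 10 of 23 repeats, with an adjusted p of 0.162 without WT stem library 1. In KO organoids the change with differentiation was 0.12 ± 0.20 (adjusted p = 0.605), with a 95% interval from -0.31 to 0.56.

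Notch3 (ENSMUSG00000038146, chromosome 17, 32120820 to 32166852), a receptor best known from the muscle cells of vessel walls, stood at 2159, 1820 and 1950 in WT stem libraries and 3677, 2547 and 2593 in KO stem libraries. In the differentiated condition it stood at 1157, 1417 and 1370 in WT and 4046, 2600 and 2222 in KO libraries. The KO libraries were higher than the WT libraries without overlap in both conditions, and the WT differentiated group was the lowest. In WT it fell by 0.59 ± 0.20 (adjusted p = 0.0206), which missed the threshold without WT stem library 1 (adjusted p = 0.06) or WT differentiated library 1 (adjusted p = 0.0758). In KO organoids the change was -0.02 ± 0.20 (adjusted p = 0.942). The markers of muscle cells around vessels summed to 68.1 to 623 in WT stem, 21.01 to 35.2 in KO stem, 100 to 120 in WT differentiated and 87.9 to 162 in KO differentiated libraries. Of the 2 that passed the filter, Rgs5 was higher in KO differentiated libraries, with means of 9.53 in WT and 87.9 in KO (2.99 ± 0.42, adjusted p = 0.00112), and Pdgfrb was lower, with means of 90.7 and 21.6 (change of -2.13 ± 0.33, adjusted p = 0.00178). Of these 7 markers Acta2 had no read in any WT differentiated library and none was without reads throughout another group. Their part in the Notch3 level was not tested.

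Per kilobase of annotated exon, and counting Notch4 from the list of other pathway genes, Notch2 made up 45.4 ± 2.4% (SD, n = 3) of receptor transcripts in WT stem and 58.2 ± 2.7% in WT differentiated libraries. Its share was 37.2 ± 3.2% in KO stem and 45.9 ± 2.9% in KO differentiated libraries. Notch3 made up 35.6 ± 2.5% and 23.9 ± 3.0% in WT, against 44.6 ± 5.1% and 33.8 ± 3.1% in KO. The receptor transcripts thus held less Notch3 and more Notch2 after differentiation in both genotypes, and more Notch3 in KO than in WT libraries in each condition. Notch1 contributed 18.7 ± 1.2% in WT stem and 13.5 ± 0.2% in WT differentiated libraries. The shares rest on the length of all annotated exons of a gene, so they compare groups better than genes.

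The ligands changed most in their order. Jag2 (ENSMUSG00000002799, chromosome 12, 112907819 to 112929776) read 6637, 4904 and 5382 in WT stem, 7138, 6034 and 6255 in KO stem, 1781, 1702 and 1631 in WT differentiated and 2928, 2487 and 2533 in KO differentiated libraries. No pair of groups across conditions came near to overlapping. It fell by 1.71 ± 0.11 in WT and by 1.29 ± 0.11 in KO (adjusted p = 1.11e-06), a ratio of means of 0.302 and 0.409. Jag1 (ENSMUSG00000027276, chromosome 2, 137081456 to 137116644) went the other way, from 2452, 1949 and 2339 to 4394, 4076 and 3943 in WT and from 2409, 2430 and 2271 to 6317, 4634 and 4434 in KO libraries. The KO rise was 1.10 ± 0.12 (adjusted p = 1.20e-05). Both Jagged ligands bind the same receptors, and Jag2 was the higher of them per kilobase in every stem library and Jag1 in every differentiated library.

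**Figure D2:**
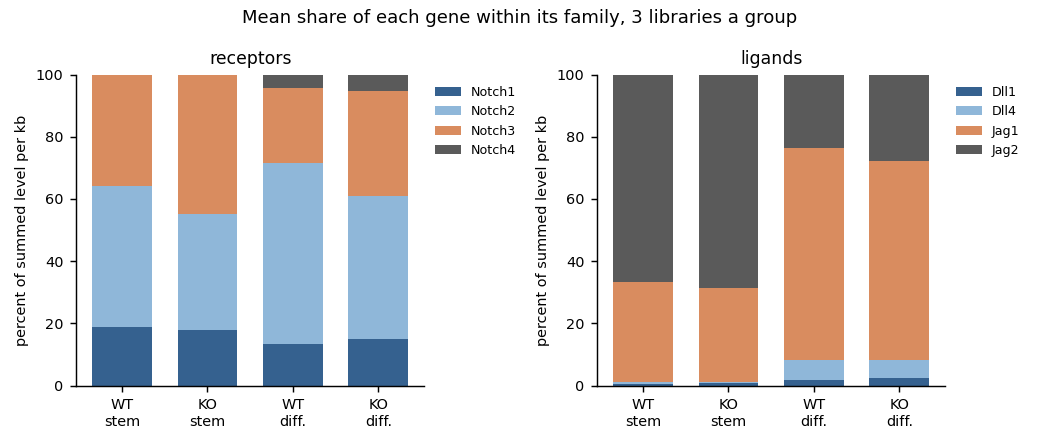
Share of each gene in the summed level per kilobase of the receptors Notch1 to Notch4 (left) and of the ligands Dll1, Dll4, Jag1 and Jag2 (right), as stacked means of 3 libraries a group in percent. Jag2 took 66.8% of the ligand level in WT stem and 23.6% in WT differentiated libraries, and Jag1 31.9% and 68.3%.

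As a share of the 4 ligands per kilobase, Jag2 went from 66.8 ± 1.9% to 23.6 ± 0.5% in WT and from 68.6 ± 1.9% to 27.9 ± 2.2% in KO libraries. Jag1 went from 31.9 ± 1.7% to 68.3 ± 0.5% and from 30.1 ± 1.8% to 63.7 ± 1.8%. The summed ligand level per kilobase was 1210 in WT stem and 1040 in WT differentiated libraries on average, and 1354 and 1377 in KO, so that the makeup of the ligands moved more than their sum.

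The Delta ligands were scarce in the stem condition. Dll4 (ENSMUSG00000027314, chromosome 2, 119325784 to 119335962), which marks secretory progenitors in the crypt, read 9.78, 70.9 and 35.8 in WT stem and 15.6, 30.1 and 35.6 in KO stem libraries. It read 311, 223 and 234 in WT differentiated and 374, 276 and 299 in KO differentiated libraries. Every differentiated library was above every stem library, and the WT stem libraries spread widely, from 6 to 64 reads. The rise was 3.56 ± 0.55 in KO (adjusted p = 1.28e-04). Without WT stem library 1, which held 6 reads, the rise in WT was 2.31 (adjusted p = 1.61e-04). Dll1 (ENSMUSG00000014773, chromosome 17, 15367354 to 15376872), the other Delta ligand of secretory progenitors, read 32.6, 11.1 and 17.3 in WT stem, 59.3, 47.0 and 21.4 in KO stem, 93.8, 86.0 and 49.97 in WT differentiated and 206, 126 and 98.8 in KO differentiated libraries. The 4 groups were ordered by mean from WT stem through KO stem and WT differentiated to KO differentiated. The stem groups overlapped, as did the KO stem and WT differentiated groups. It rose by 1.78 ± 0.46 in KO (adjusted p = 0.00493). Dll1 and Dll4 share exons on the other strand with A930024N18Rik (0 to 19.0 over the 12 libraries) and Gm14207 (0.539 to 36.1), and the strand use of the counting is not stated. Dll4 and Dll1 together stayed small, at 6.37 ± 0.81% and 1.73 ± 0.46% of the ligands in WT differentiated libraries.

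The target genes split. Hes1 (ENSMUSG00000022528, chromosome 16, 30064384 to 30067796), the repressor of Atoh1, read 2046, 1818 and 1818 in WT stem, 1810, 1648 and 1667 in KO stem, 3335, 3445 and 3275 in WT differentiated and 3516, 3266 and 3162 in KO differentiated libraries. It had the smallest standard error of the 10, and the differentiated groups of both genotypes overlapped. The rise in KO was 0.96 ± 0.07 (adjusted p = 2.45e-07). Nrarp (ENSMUSG00000078202, chromosome 2, 25180758 to 25183339), a target whose protein limits Notch signalling, read 1643, 1205 and 1170 in WT stem and 1278, 1133 and 1211 in KO stem libraries. It read 796, 940 and 986 in WT differentiated and 1254, 1166 and 1073 in KO differentiated libraries. The 3 WT differentiated libraries were the lowest of the 12, and the KO groups overlapped, with a change of -0.05 ± 0.13 (adjusted p = 0.73). Thus Hes1 rose and Nrarp fell in the same WT organoids.

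Atoh1 (ENSMUSG00000073043, chromosome 6, 64729125 to 64731245) was near the limit of detection in the stem condition, with 3 to 13 reads in each library. It read 9.78, 6.65 and 3.46 in WT stem, 1.62, 9.54 and 5.09 in KO stem, 61.0, 28.7 and 47.7 in WT differentiated and 14.5, 47.0 and 55.2 in KO differentiated libraries. All differentiated libraries were above all stem libraries, and KO differentiated library 1 was the lowest of the differentiated ones. The rise in KO was 2.65 ± 0.61 (adjusted p = 0.00233), and in both genotypes it was called in all 22 repeats in which the gene was tested. Per kilobase, the order in WT differentiated libraries ran from Hes1 (1645) through Jag1 (710), Notch2 (397), Nrarp (351), Jag2 (245), Notch3 (162), Notch1 (92.1) and Dll4 (66.5) to Atoh1 (21.6) and Dll1 (18.2). Atoh1 and Dll1 overlapped in that order, as did Notch2 and Nrarp.

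**Figure D3:**
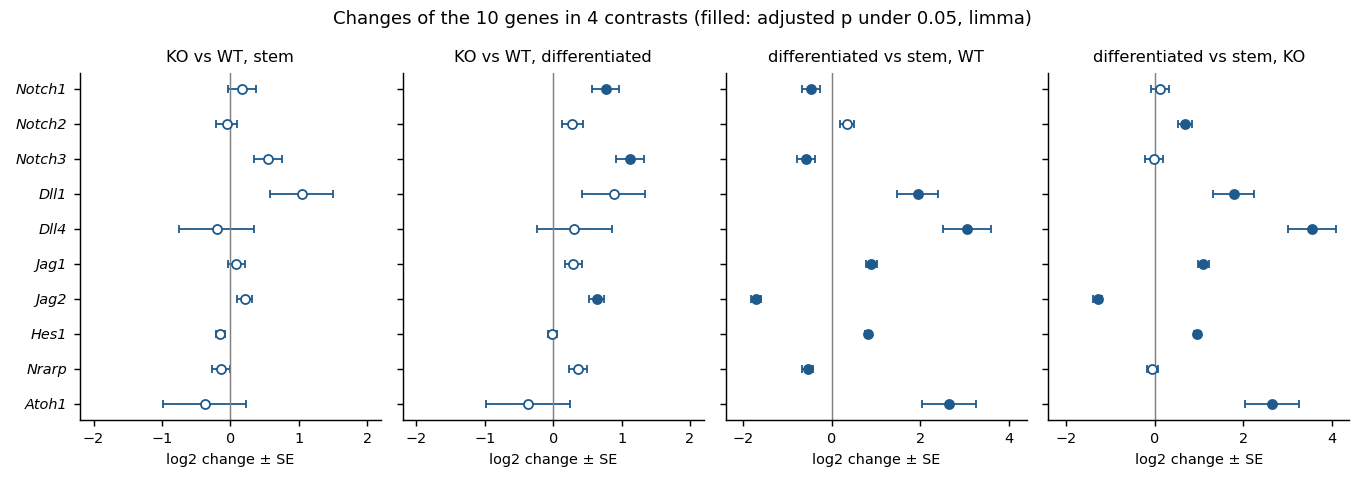
Log2 change ± SE of the 10 genes in 4 contrasts, from limma on log2(normalized count + 1), with filled points where the adjusted p was under 0.05. In the stem condition no point is filled, in the differentiated condition Notch1, Notch3 and Jag2 are, and the responses to differentiation are filled for 9 genes in WT and 7 in KO.

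The second question was whether the genotypes differed. In the stem condition 0 of the 10 genes passed the threshold with limma, 3 of the 10 had an unadjusted p under 0.05 (Notch3, Dll1 and Hes1), and edgeR and DESeq2 called 0 as well, beside 6.57% of all genes called by limma (3.48% higher and 3.09% lower) and 24.6% at an unadjusted p under 0.05. The median change of the 10 was 0.01, against -0.04 over all genes. Notch3 was higher in all 3 KO libraries, by 0.55 ± 0.20 (adjusted p = 0.123). It was called without KO differentiated library 1 (adjusted p = 0.0372) and when the KO libraries were paired by their number (adjusted p = 0.0114). The labels do not give this pairing, which was tried after the data were seen. Hes1 was lower in all 3 KO libraries, by a change of -0.15 ± 0.07 (adjusted p = 0.201). These were the 2 genes without overlap between the genotypes, 1 in each direction, where 29.5% of all genes did not overlap (11.6% higher and 17.9% lower). Dll1 stood at 1.04 ± 0.46 (adjusted p = 0.194) and Jag2 at 0.21 ± 0.11 (adjusted p = 0.269). Without WT stem library 1 Jag2 was called at 0.33 (adjusted p = 0.047), and Dll1 was called at 1.85 (adjusted p = 0.0225) without WT stem library 1 and KO stem library 3. Atoh1 stood at -0.38 ± 0.61 (adjusted p = 0.743), and its 95% interval ran from -1.72 to 0.96.

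In the differentiated condition Notch3, Jag2 and Notch1 were higher in KO organoids, 3 of the 10 genes, where 27.6% of all genes were called, 13.8% higher and 13.9% lower. Of the 10, 0 were called lower by limma, edgeR or DESeq2, and 5 had an unadjusted p under 0.05, beside 40.5% of all genes. Notch3 was higher by 1.13 ± 0.20 (adjusted p = 0.00316), a ratio of means of 2.25. Jag2 was higher by 0.63 ± 0.11 (adjusted p = 0.00266), a ratio of 1.55, and both kept their call in all 23 repeats. Notch1 was higher by 0.77 ± 0.20 (adjusted p = 0.0163), a ratio of 1.74. It lost the call without WT differentiated library 3 (adjusted p = 0.057) or KO differentiated library 1 (0.58, adjusted p = 0.0646). Without KO differentiated library 1 Notch3 stood at 0.88 (adjusted p = 0.00588) and Jag2 at 0.56 (adjusted p = 0.0103).

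Another 3 genes were higher in every KO differentiated library than in any WT one without passing the threshold, which makes 6 of 10 higher and 0 lower without overlap, beside 53.1% of all genes (26.8% higher and 26.4% lower). Nrarp stood at 0.36 ± 0.13 (adjusted p = 0.0573). It stood at 0.31 without KO differentiated library 1 (adjusted p = 0.18). It was called by edgeR (adjusted p = 0.0368) and DESeq2 (adjusted p = 0.0352), with only the groups compared in the fit (adjusted p = 0.0424) and without WT stem library 1 (adjusted p = 0.0103). Jag1 stood at 0.29 ± 0.12 (adjusted p = 0.102) and Dll1 at 0.88 ± 0.46 (adjusted p = 0.176). With the replicate number as a block Jag1 was called (adjusted p = 0.0448), as was Dll1 (adjusted p = 0.0476). Without KO differentiated library 1 they stood at 0.13 and 0.59.

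Among the other genes Hes1 differed by -0.02 ± 0.07 (adjusted p = 0.873), with a 95% interval from -0.16 to 0.13. Atoh1 differed by -0.37 ± 0.61 (adjusted p = 0.689), with an interval from -1.71 to 0.97, and by 0.22 without KO differentiated library 1. Notch2 stood at 0.28 ± 0.16 (adjusted p = 0.202) and Dll4 at 0.31 ± 0.55 (adjusted p = 0.712), and at 0.15 and 0.18 without that library. In the same KO differentiated libraries all 6 stem cell markers were higher, among them Lgr5 by 1.02 ± 0.32 (adjusted p = 0.035) and Ascl2 by 1.07 ± 0.18 (adjusted p = 0.00244). Their sum was 12765 to 13977 in WT and 18565 to 22327 in KO. All 8 absorptive colonocyte markers were lower, with a median change of -2.46 and sums of 95966 to 155641 in WT and 15198 to 44142 in KO. Their part in the differences of Notch1, Notch3 and Jag2 was not tested.

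The difference between the responses was then tested as the interaction of genotype and condition. Of the 10 genes 0 were called by limma, edgeR or DESeq2, beside 8.7% of all genes by limma (5.12% higher and 3.58% lower), and 2 had an unadjusted p under 0.05, beside 27.2%. These were Jag2, at 0.43 ± 0.15 (adjusted p = 0.103), and Nrarp, at 0.50 ± 0.18 (adjusted p = 0.109). Jag2 was called with the replicate number as a block (adjusted p = 0.0189). Notch1 stood at 0.60 ± 0.28 (adjusted p = 0.197) and Notch3 at 0.57 ± 0.29 (adjusted p = 0.222), and Notch3 was called when the KO libraries were paired by number (adjusted p = 0.0444). The values of 9 of the 10 lay above 0, with a median of 0.38, against 0.04 over all genes. The share of all genes above 0 was not taken. Every value but that of Dll4 was lower without WT stem library 1, where Notch2 went from 0.34 to 0.17. Every value but that of Atoh1 was lower without KO differentiated library 1. There Notch3 went from 0.57 to 0.32 and Jag1 from 0.21 to 0.05. Hence Notch1, Notch3 and Nrarp fell in WT and were not called in KO, but their responses were not shown to differ.

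A list of 54 other Notch pathway genes was read from the same fit. Of these 45 passed the filter on low values, and the 9 below it were Dll3, Dlk1, Dtx1, Bend6, Hes5, Hes7, Hey1, Hey2 and Heyl. Hey1, a classic Notch target in other tissues, did not exceed 6.65 in any library. With differentiation 23 rose and 8 fell in WT, beside 36.3% and 35.9% of all genes, and 26 rose and 6 fell in KO, beside 34.1% and 33.6%. Between genotypes 0 were called in the stem condition by limma, 1 by edgeR and 2 by DESeq2, and 9 were higher and 10 lower in KO differentiated libraries, beside 13.8% and 13.9% of all genes. Leaving out a library gave 4 to 13 higher and 4 to 13 lower, and the 19 calls became 8 without WT differentiated library 3 and 10 without KO differentiated library 1. The median change there was 0.09, against 0.02 over all genes.

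By step, 7 of 10 genes for receptor cleavage rose with differentiation and 1 fell in WT, and 6 rose and 1 fell in KO. Adam10, the protease that makes the first cut after ligand binding, rose from 14967 ± 2649 to 22261 ± 794 in WT (SD, n = 3), by 0.59 ± 0.11 (adjusted p = 5.75e-04), and by 0.47 ± 0.11 in KO (adjusted p = 0.0029). Of 6 genes for receptor glycosylation 0 rose and 4 fell in WT, and 1 rose and 3 fell in KO. The shares over all genes were 36.3% higher and 35.9% lower in WT and 34.1% and 33.6% in KO.

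The receptor Notch4, known mainly from vessels, rose in both genotypes. It read 27.7, 17.7 and 6.92 in WT stem, 14.0, 12.5 and 23.4 in KO stem, 270, 246 and 209 in WT differentiated and 562, 423 and 382 in KO differentiated libraries. The differentiated groups did not overlap with the stem groups or with each other. It rose by 3.90 ± 0.40 in WT (adjusted p = 3.83e-06) and by 4.73 ± 0.40 in KO (adjusted p = 1.11e-06), and differed between the genotypes by 0.90 ± 0.40 (adjusted p = 0.115). That difference was called by edgeR (adjusted p = 0.0336) and DESeq2 (adjusted p = 0.00312). The 8 endothelial markers summed to 925 to 1104 in WT stem and 90.8 to 120 in WT differentiated libraries, and to 1076 to 1211 and 108 to 137 in KO. Most of this sum was Egfl7, with means of 956 and 69.9 in WT. Of the 3 that passed the filter Egfl7 and Esam fell in each genotype. Cdh5 rose, as Notch4 did, from no read to a mean of 17.0 in WT (4.16 ± 0.50, adjusted p = 1.54e-05) and from 1.16 to 8.81 in KO (2.40 ± 0.50, adjusted p = 0.00129). Pecam1, below the filter, had means of 1.51 and 8.07 in WT, and Emcn and Kdr had no read in WT differentiated libraries. Their part in the Notch4 level was not tested.

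Neurl1a, a ubiquitin ligase that promotes uptake of Notch ligands, read 150, 160 and 127 in WT differentiated and 569, 358 and 344 in KO differentiated libraries. It was higher in KO by 1.499 ± 0.22 (adjusted p = 0.00141), and by 1.27 without KO differentiated library 1 (adjusted p = 0.00363). Dtx4, a Deltex ubiquitin ligase that acts on the receptor, was higher by 0.87 ± 0.22 (adjusted p = 0.0153), with 3881, 4293 and 3661 in WT and 10307, 6148 and 5822 in KO libraries. Without KO differentiated library 1 it stood at 0.60 (adjusted p = 0.0476). Hes2, a Hes family member, was lower by a change of -1.91 ± 0.63 (adjusted p = 0.043), and was called neither by edgeR (adjusted p = 0.0567) nor without KO differentiated library 1 (adjusted p = 0.147). Mib1, the main ligase for Notch ligands, changed by -0.03 ± 0.07 (adjusted p = 0.78) and Rbpj by 0.12 ± 0.07 (adjusted p = 0.218). Rbpj fell with differentiation by 0.40 ± 0.07 in WT (adjusted p = 3.75e-04) and by 0.28 ± 0.07 in KO (adjusted p = 0.0046).

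Lfng, the Lunatic fringe glycosyltransferase that changes how receptors respond to Delta and Jagged ligands, had the largest called interaction of this list. It read 885, 617 and 479 in WT stem, 573, 407 and 430 in KO stem, 859, 744 and 611 in WT differentiated and 2015, 1253 and 1208 in KO differentiated libraries. The KO differentiated libraries stood above all 9 others. It rose by 1.64 ± 0.25 in KO (adjusted p = 1.18e-04), changed by 0.19 ± 0.25 in WT (adjusted p = 0.505), and the interaction was 1.45 ± 0.35 (adjusted p = 0.0321). In the differentiated condition it was higher in KO by 0.99 ± 0.25 (adjusted p = 0.0147), and by 0.75 without KO differentiated library 1 (adjusted p = 0.059). The co-activator Maml2 rose by 1.79 ± 0.13 in WT (adjusted p = 2.15e-07) and by 1.77 ± 0.13 in KO (adjusted p = 3.57e-07). The co-repressor Tle2 rose by 2.28 ± 0.23 in WT (adjusted p = 3.46e-06) and by 2.16 ± 0.23 in KO (adjusted p = 7.47e-06).

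**Figure D4:**
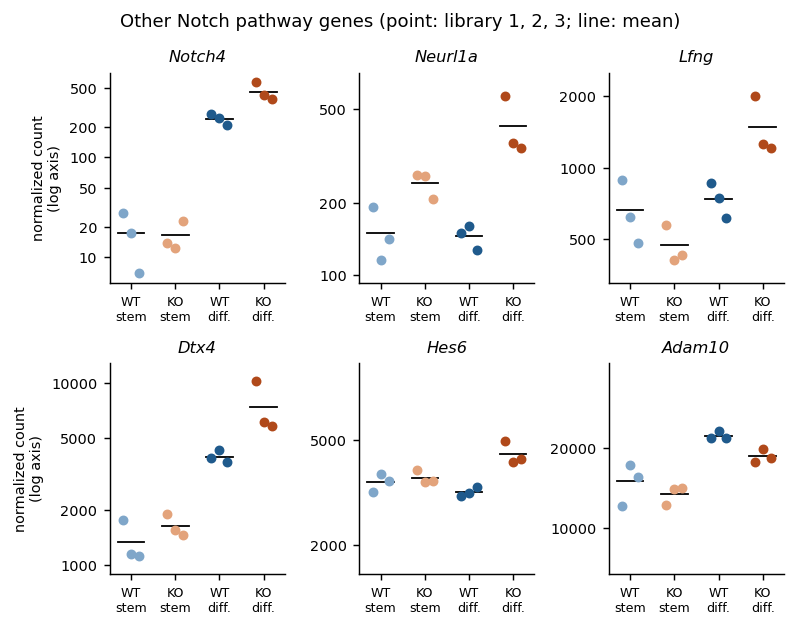
Normalized count (log axis) of 6 other Notch pathway genes in each library, with a point for each of libraries 1, 2 and 3 and a line at the group mean. Notch4 rose in both genotypes, Lfng stood above all other libraries in the 3 KO differentiated ones (1208 to 2015), and Adam10 rose in both genotypes.

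The secretory lineage was read from a list of 32 genes, of which 28 were tested, and Gfi1, Neurog3, Neurod1 and Pax4 were below the filter. With differentiation 19 rose and 2 fell in WT (beside 36.3% and 35.9% of all genes) and 21 rose and 2 fell in KO (beside 34.1% and 33.6%), with medians of 2.25 and 1.96 against 0.01 over all genes. Spdef, a goblet cell factor downstream of Atoh1, read 6.52, 7.76 and 6.92 in WT stem, 2.16, 1.47 and 3.05 in KO stem, 118, 54.9 and 107 in WT differentiated and 56.4, 99.4 and 105 in KO differentiated libraries. It was lower in KO stem libraries by a change of -1.35 ± 0.35 (adjusted p = 0.0444), on 2 to 4 reads in a KO library, and was not called by edgeR (adjusted p = 0.0992). Tff3, a goblet cell peptide, was also lower in KO stem libraries by a change of -2.14 ± 0.47 (adjusted p = 0.0224). That change rested on 10, 2 and 8 reads in KO stem and 13, 22 and 18 reads in WT stem libraries. It was not called by edgeR (adjusted p = 0.0981).

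In the differentiated condition 5 of the 28 were higher and 2 lower in KO, beside 13.8% and 13.9% of all genes. Leaving out a library gave 3 to 5 higher and 0 to 3 lower, and the 7 calls became 3 without WT differentiated library 1 or 3 and 4 without KO differentiated library 1. The 5 were the lineage factors Creb3l1 by 1.03 ± 0.12 (adjusted p = 4.79e-04), Sox9 by 0.89 ± 0.12 (adjusted p = 9.76e-04), Sox4 by 0.65 ± 0.16 (adjusted p = 0.0125), Foxa1 by 0.24 ± 0.07 (adjusted p = 0.0278) and Foxa2. Without KO differentiated library 1 Sox9 stood at 0.73 (adjusted p = 8.42e-04) and Sox4 at 0.49 (adjusted p = 0.0471), and Foxa1 was not called (adjusted p = 0.103). Creb3l1 fell with differentiation in both genotypes. It read 2985, 3491 and 2639 in WT stem and 628, 520 and 500 in WT differentiated libraries. In KO it read 2629, 2932 and 3314 in stem and 1172, 1118 and 1063 in differentiated libraries. Sox9 and Sox4 are also known from progenitor cells. The 2 lower ones were Zg16, a goblet cell lectin, and Sct, the hormone secretin. Zg16 read 385, 205 and 513 in WT and 45.0, 130 and 215 in KO libraries (change of -1.66 ± 0.52, adjusted p = 0.0369), was not called by edgeR (adjusted p = 0.0584), and had no read in WT stem libraries. Muc2, the main gel-forming mucin, read 975, 619 and 1052 in WT and 217, 630 and 586 in KO differentiated libraries. It differed by -0.99 ± 0.46 (adjusted p = 0.127), was called when the KO libraries were paired by number (adjusted p = 0.0135), and stood at -0.50 without KO differentiated library 1. That library was the lowest of its group for Atoh1, Muc2, Tff3, Spdef, Zg16 and Chgb, and the highest for Notch1, Notch3, Dll1, Lfng, Sox4 and Sox9. Foxa1 and Creb3l1 of the secretory list were also highest in it. Over all genes tested it was the lowest of its group for 40.0% and the highest for 44.7%.

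**Figure D5:**
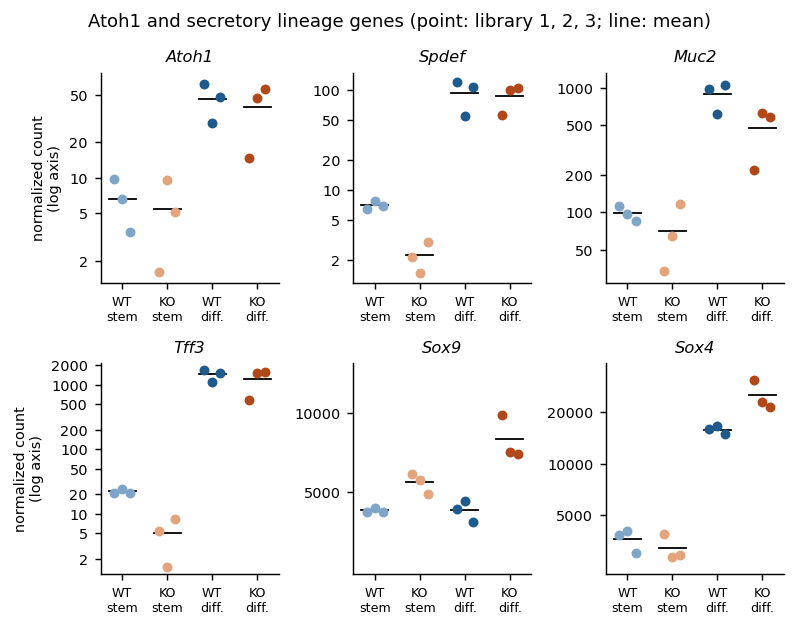
Normalized count (log axis) of Atoh1 and 5 genes of the secretory lineage list in each library, with a point for each of libraries 1, 2 and 3 and a line at the group mean. Atoh1, Spdef, Muc2 and Tff3 rose in both genotypes and were lowest in library 1 of the KO differentiated group, where Sox9 and Sox4 were highest.

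Finally, the genes whose pattern was most like that of a member were found over the 12 libraries, by the root mean square difference of log2 values centred on each gene's mean, among 11247 protein-coding genes. For Atoh1 these were Chga, an enteroendocrine granule protein (0.481), Muc2 (0.494) and the cytokine gene Tnfsf15 (0.545), where Atoh1 itself varied by 1.499 about its mean. For Dll1 they included the Wnt ligand gene Wnt9a (0.343) and the membrane protease gene Mmp14 (0.359). For Dll4 they were Gp1bb (0.539), Tmcc3 (0.541) and Zfp467 (0.587). Hes1 and Jag1, which varied less, were matched more closely, by Ercc1 (0.0523), Mnt and Nkapd1 for Hes1 and by Fam210b (0.085), Dlgap4 and Map7d1 for Jag1. Iffo2 (0.169), Itpripl1 and Zfp94 were nearest to Notch1, and Noc3l (0.07), Kansl2 and Gtf2e1 to Nrarp. Likeness over them describes these 12 libraries only, which fall into 4 groups of 3.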

How the data were processed

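RNA was sequenced from 12 libraries of colonic organoids, 3 in each of 4 groups taken from the sample labels. Per the labels, the submitters' processing notes name Bowtie2, RSEM 1.2.11, DESeq2 1.18.1 and GRCm38. The annotation and the strand use of the counting are not given in the sources used here. The deposited signal values are normalized counts per gene, which the authors made by dividing read counts by a factor for each library. Whole reads were recovered from the step between low values of each library, at 0.539 to 2.27 per read, and 100% of values came out whole within 0.05 of a read. Depth was 25.1 to 99.0 M reads, and floors and read numbers cover counting error only. Of the identifiers 99.1% were matched to GENCODE vM21. Fold changes are on the log2(normalized count + 1) scale, which can understate the change of low genes. It does not always do so, as the Dll4 rise in WT was 3.06 with limma, 2.65 with edgeR and 2.70 with DESeq2.

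The 14856 genes that reached a value of 10 in 3 or more libraries entered a limma 3.58.1 model (R 4.3.3) that had a mean-variance trend and 4 group means over all 12 libraries. Tests were two-sided with Benjamini-Hochberg adjustment over all genes tested, and a gene was called under 0.05. edgeR 4.0.16 (quasi-likelihood test) and DESeq2 1.42.0 were run on the recovered reads as alternatives. The others were pseudocounts of 0.5 and 5, no filter, a mean of at least 50, quantile normalization, only the groups compared, the replicate number as a block, and each library left out. After the data were seen, 2 alternatives were added: a block within the KO libraries, and leaving out WT stem library 1 with KO stem library 3. Residuals of same-numbered libraries correlated by -0.0511 to 0.286 over 18 pairs, with 7 over 0.1. Between KO stem and KO differentiated libraries all 3 pairs were over 0.1, at 0.286, 0.191 and 0.256. Across genotypes, WT stem library 1 with KO differentiated library 1 reached 0.201. Pairs with different numbers were not compared, so pairing within KO was not shown. It is a hint from the data and not from the labels.

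The 10 genes and the lists were chosen with earlier results of these data known. Named list genes were, in each contrast, the called genes with the 4 largest absolute changes and a mean of at least 50 in a group, plus Rbpj, Lfng, Adam10, Mib1, Hey1, Gfi1, Spdef and Muc2. Tff3 in the stem condition, Foxa2, Sct, Chgb in single libraries, Lgr5 and Ascl2 were named after their values were seen. The genes most like a member were the 3 nearest protein-coding genes with a mean of at least 50. Some genes that these rules name are not reported here.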

Additional observations from a re-analysis of the deposited data

Results flagged for a closer look

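For none of the 10 genes was the response to differentiation shown to differ between the genotypes in limma. Of the 45 Notch pathway genes tested, 3 had an interaction called higher and 1 called lower. Of the 28 secretory lineage genes tested, 3 were called higher and 0 lower. Over all genes the shares were 5.12% higher and 3.58% lower. Lfng had an interaction of 1.45 on the log2 scale, called in 14 of 22 alternatives with an adjusted p of at most 0.0873. Creb3l1, which fell with differentiation in both genotypes and fell less in KO, stood at 1.07 and was called in 22 of 22 (at most 0.0344). Sox4 stood at 0.83 and was called in 10 (at most 0.112), Maml3 at 0.52 in 9 (at most 0.0844), Hes6 at 0.42 in 8 (at most 0.109), and Foxa1 at 0.35 in 6 (at most 0.126).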

How the results depend on the processing

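Of 50 changes of the 10 genes 19 were called. Of these, 16 kept their call and 0 reversed over the 22 or 23 alternatives in which each was tested. With differentiation 5 rose and 4 fell in WT and 6 rose and 1 fell in KO, beside 72.2% and 67.7% of all genes called. Between genotypes 0 were called in the stem condition and 3 in the differentiated one, beside 6.57% and 27.6%. Of the interactions 0 were called, beside 8.7% of all genes. The cause of the changes below was not tested. The 976 genes called between genotypes in the stem condition became 1984 with DESeq2, 297 with only the groups compared and 1486 with the replicate block, and 363 (without KO stem library 1) to 1497 (without WT stem library 1 and KO stem library 3) with libraries left out. The 4103 of the differentiated condition ranged from 2233 (without WT differentiated library 3) to 5699 (without WT stem library 1). The 1292 interactions became 750 with no filter, 2442 with DESeq2 and 2141 with the replicate block, and 342 (without WT differentiated library 3) to 1603 (without WT stem library 1). Of the 10 genes, the block called 5 between genotypes in the differentiated condition, where its count over all genes is not given here. It called 1 interaction, beside 2141 of the 14856 genes tested. The block within KO called 1 of the 10 in the stem condition and 1 interaction, also without a count over all genes here. Left-out libraries gave 0 to 1 of the 10 in the stem condition, beside 363 to 1497 of all genes. Changes of sign were all among changes that were not called. Between genotypes in the differentiated condition Hes1 stood at 0.0425 with quantile normalization and 0.0090 with edgeR. In the KO response Notch3 stood at 0.0122 with DESeq2 and Nrarp at 0.0051 with quantile normalization, and the Atoh1 interaction at -0.12 with a pseudocount of 5. With libraries left out, stem differences ran from -0.16 to 0.11 for Notch2, -1.18 to 0.42 for Dll4, -0.0158 to 0.18 for Jag1, -0.22 to 0.0227 for Nrarp and -0.84 to 0.16 for Atoh1. Differentiated differences ran from -0.0603 to 0.0163 for Hes1 and -0.71 to 0.22 for Atoh1. KO responses ran from -0.0973 to 0.26 for Notch1, -0.27 to 0.16 for Notch3 and -0.11 to 0.0040 for Nrarp. Interactions ran from -0.97 to 0.19 for Dll1, -0.11 to 1.48 for Dll4 and -0.53 to 0.59 for Atoh1. Stem levels of Atoh1 rest on 3 to 13 reads a library.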
